A study of Mus musculus with 8 samples.

Results

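The genes for the Wnt ligands and for their Frizzled receptors were examined together with *Lrp5* and *Lrp6* in lists of accessible chromatin regions from mouse mammary gland epithelial cells. Members were all protein-coding genes of the GENCODE annotation whose name is Wnt or Fzd followed by a digit, plus the co-receptor pair. They numbered 31 of 21951 protein-coding genes, of which 19 were ligands and 12 receptors (10 Frizzled genes, *Lrp5* and *Lrp6*). The locus of a gene was its annotated span with 20 kb on each side. The rule used names only and no measured value.

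Wnt proteins are lipid-modified secreted ligands. They bind Frizzled proteins, multi-pass membrane receptors, and in the canonical branch they also engage Lrp5 or Lrp6, which spares β-catenin from destruction and lets it act with TCF/LEF factors in the nucleus. Other ligands, Wnt5a, Wnt5b and Wnt11 among them, are best known for β-catenin-independent signaling. In the mammary gland, Wnt signals serve bud formation, side branching and stem cell maintenance, and *Wnt1* was found as a gene activated by mouse mammary tumor virus.

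FAIRE-seq, in which DNA free of crosslinked protein is recovered and sequenced, had been performed on EpH4 cells and on EpRas cells, their derivative transformed with active H-Ras. Cells of either line were left untreated or received 1 ng/ml TGF-β3 for 8 days, with 2 replicate libraries in each of the 4 groups. EpRas cells were grown in 4% and EpH4 cells in 10% serum, so that Ras and the medium cannot be told apart, and each line is a single derivative. The lists held 10821 (TGF-β-treated EpH4, replicate 2) to 27337 peaks (TGF-β-treated EpRas, replicate 1), and the read depth behind them was unknown. A peak here means a region that passed the authors' limit in that library, so a missing peak does not show closed chromatin, and fewer cells with an open site cannot be told apart from less opening in each cell. Of 8 epithelial marker genes fixed for a check of the labels, 4 to 6 had a promoter peak in each EpH4 library and 0 to 4 in each EpRas library, with *Epcam* at 0 in all. *Krt14* had one in all 8 libraries and the other basal markers, *Krt5*, *Trp63* and *Acta2*, in 0. Of 6 mesenchymal genes, 0 to 1 had one in EpH4 and 0 to 2 in EpRas libraries, and the 4 blood and 4 endothelial genes had 0.

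The regions that set the libraries apart, or that all libraries shared, are shown here as sequence. Each is up to 300 bases around the middle of a merged region, from GRCm38.p6 (the build of mm10), plus strand, 5′ to 3′. Capitals mark exact matches on either strand to a letter string for each of 4 factor families (TGAGTCA for AP-1, CCGGAAG for ETS, TGTGGTT for RUNX, and CTTTGNN with A or T at each N for TCF/LEF). A match is a description of letters and not a bound site.

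The first pair separated the cell lines. The *Lrp5* intron sequence (chr19:3667176-3667475) came from the member region that every EpH4 list and no EpRas list contained. The sequence in the *Wnt5b* locus (chr6:119415252-119415551) came from the one with the reverse pattern, and it lies in an intron of *Adipor2*, 2.30 kb from the nearest start site of that gene. Neither held a match.
Lrp5 intron, called in EpH4: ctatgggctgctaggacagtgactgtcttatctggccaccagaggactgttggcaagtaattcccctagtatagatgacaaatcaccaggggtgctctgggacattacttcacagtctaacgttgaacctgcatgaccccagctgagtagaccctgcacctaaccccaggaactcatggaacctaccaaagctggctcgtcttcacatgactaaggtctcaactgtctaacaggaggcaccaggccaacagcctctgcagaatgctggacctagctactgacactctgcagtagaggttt
Wnt5b locus, Adipor2 intron, called in EpRas: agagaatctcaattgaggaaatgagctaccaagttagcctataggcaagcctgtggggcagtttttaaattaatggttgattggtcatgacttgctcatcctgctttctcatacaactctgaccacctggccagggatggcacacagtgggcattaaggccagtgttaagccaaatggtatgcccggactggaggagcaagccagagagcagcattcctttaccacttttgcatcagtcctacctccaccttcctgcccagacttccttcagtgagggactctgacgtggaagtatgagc

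The next pair appeared in each EpRas list with TGF-β and in no other list. The first lies just beyond the 3′ end of *Wnt2b* (chr3:104945024-104945271, shortened to leave out annotated transcript ends) and held 1 AP-1 string. The other lies in an intron of *Wnt5b* (chr6:119493983-119494282) and held none.
Wnt2b, downstream: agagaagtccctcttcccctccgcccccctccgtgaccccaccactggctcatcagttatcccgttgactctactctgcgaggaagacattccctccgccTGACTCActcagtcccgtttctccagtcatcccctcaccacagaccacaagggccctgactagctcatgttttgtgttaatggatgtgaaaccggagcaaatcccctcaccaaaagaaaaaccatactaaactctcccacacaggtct
Wnt5b intron: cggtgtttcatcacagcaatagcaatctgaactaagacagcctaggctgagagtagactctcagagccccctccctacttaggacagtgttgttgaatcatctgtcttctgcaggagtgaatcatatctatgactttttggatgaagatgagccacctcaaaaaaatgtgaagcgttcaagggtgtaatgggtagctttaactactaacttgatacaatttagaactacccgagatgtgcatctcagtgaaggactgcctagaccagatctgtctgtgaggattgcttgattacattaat

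The following pair was called in all 8 libraries, and lies in an intron of *Wnt6* (chr1:74773127-74773426) and an intron of *Wnt7b* (chr15:85574593-85574892). The *Wnt7b* sequence held 1 AP-1 and 1 ETS string. The *Wnt6* sequence held none.
Wnt6 intron: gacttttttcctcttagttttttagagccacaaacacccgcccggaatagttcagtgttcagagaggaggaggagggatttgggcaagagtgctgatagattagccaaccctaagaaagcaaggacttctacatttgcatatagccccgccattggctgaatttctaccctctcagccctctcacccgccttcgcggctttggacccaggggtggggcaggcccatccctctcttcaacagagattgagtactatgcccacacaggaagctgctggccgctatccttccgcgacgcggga
Wnt7b intron: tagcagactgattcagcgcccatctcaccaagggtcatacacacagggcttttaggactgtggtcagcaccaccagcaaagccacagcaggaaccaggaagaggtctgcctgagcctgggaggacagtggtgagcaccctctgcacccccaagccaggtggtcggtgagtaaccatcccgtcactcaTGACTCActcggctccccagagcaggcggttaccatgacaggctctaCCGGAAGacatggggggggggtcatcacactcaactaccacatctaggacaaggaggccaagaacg

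The last sequence lies downstream of *Wnt2* (chr6:17978375-17978674), was called in 3 EpRas libraries and no EpH4 library, and is shown because it was the only member region with 2 AP-1 strings, which were seen before it was chosen.
Wnt2, downstream: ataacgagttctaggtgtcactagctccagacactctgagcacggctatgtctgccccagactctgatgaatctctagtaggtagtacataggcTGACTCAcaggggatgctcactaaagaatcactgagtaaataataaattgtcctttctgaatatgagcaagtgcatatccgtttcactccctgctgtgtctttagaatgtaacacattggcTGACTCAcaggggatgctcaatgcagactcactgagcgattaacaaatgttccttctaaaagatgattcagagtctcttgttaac

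The share of Wnt and Frizzled loci with any peak was close to that of all genes, while a smaller share had a peak in every library. At least 1 peak in at least 1 library was found at 24 of 31 member loci (77.4%, against 71.8% of all protein-coding genes), namely 15 of 19 ligands and 9 of 12 receptors. Only 5 members (16.1%, against 29.3%) had a peak in each of the 8 libraries, *Wnt6*, *Wnt7b*, *Wnt10a*, *Fzd2* and *Lrp5*. *Wnt6* and *Wnt10a* are neighbors whose loci overlap, and a single region in *Wnt6* supplied the shared peak of both. No library listed a peak at *Wnt3*, *Wnt5a*, *Wnt9b*, *Wnt16*, *Fzd3*, *Fzd9* or *Fzd10*. *Wnt5a* and *Fzd3* lie on chromosome 14, where 45.7% of protein-coding loci had no peak in any library. A peak within 2 kb of an annotated start was found at 11 members (35.5%, against 42.5% of all genes), and for 2 of them, *Wnt6* and *Fzd2*, in all 8 libraries.

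**Figure D1:**
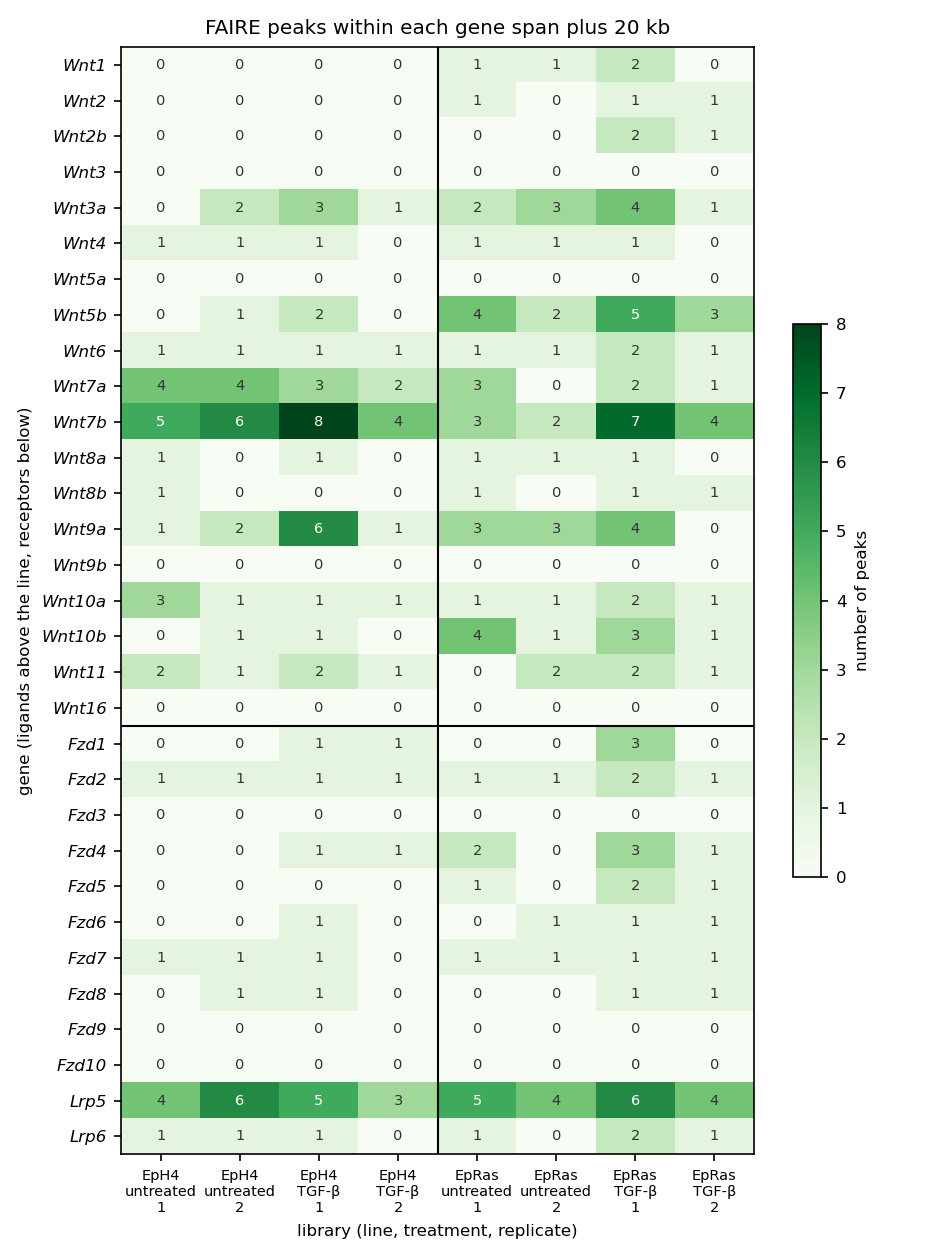
Number of FAIRE peaks within the span of each of the 31 genes plus 20 kb (rows, ligands above the black line and receptors below) in each of the 8 libraries (columns), darker green for more peaks. *Wnt7b* and *Lrp5* had 2 to 8 and 3 to 6 peaks per library, while 7 genes were at 0 throughout.

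Merged member loci held more peaks per length than those of all protein-coding genes in 8 of 8 libraries, at 0.783 to 2.69 against 0.592 to 1.47 per 100 kb. The ligand loci held more peaks per length than the receptor loci in 7 of 8 libraries. Over the 8 libraries there were 1.66 ± 0.63 peaks per 100 kb of merged ligand locus and 1.26 ± 0.563 per 100 kb of merged receptor locus (SD, n = 8), against 0.887 ± 0.272 around all protein-coding genes. The log2 ratio of receptors over ligands was -0.40, and ranged from -0.86 to 0.06 among the libraries. The exception was the second TGF-β-treated EpRas library, with 1.25 and 1.30 per 100 kb. Summed over the libraries, *Wnt7b* held 39 peaks and the next ligand, *Wnt9a*, 20, while *Lrp5* held 37 and the next receptor, *Fzd2*, 9. *Lrp5* spans 101.7 kb without its flanks, of 844.3 kb of merged receptor locus. The densities without *Wnt7b* and *Lrp5* were not computed, so the excess of either set over all genes may rest largely on a single locus. Genes are not replicates, so the differences in density were not tested.

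**Figure D2:**
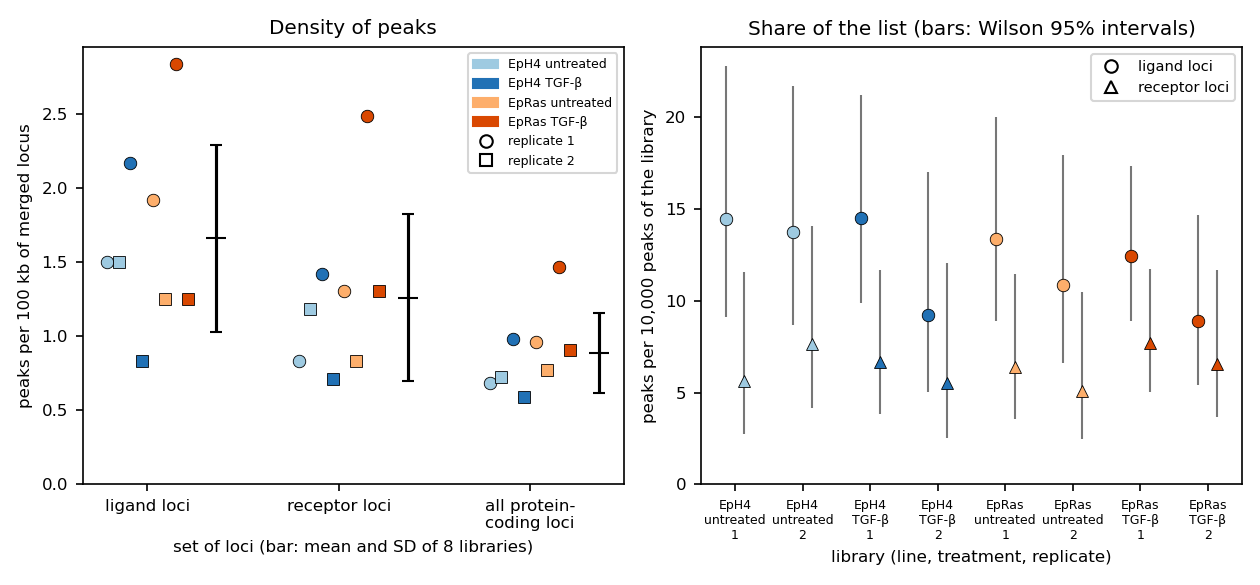
Left, peaks per 100 kb of merged locus for ligands, receptors and all protein-coding genes, 1 point per library (circles replicate 1, squares replicate 2) with the mean and SD of the 8 libraries. Right, peaks at ligand (circles) and receptor (triangles) loci per 10000 peaks of each library with Wilson 95% intervals, and the ligand value exceeded the receptor value in every library on this scale, which does not divide by locus length.

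Neither Ras nor TGF-β moved the share of peaks that fell near these genes beyond the spread of the libraries. Peaks at member loci numbered 25 and 28 in untreated EpH4, 38 and 16 in TGF-β-treated EpH4, 34 and 22 in untreated EpRas, and 55 and 26 in TGF-β-treated EpRas libraries. The longest list had the most and the shortest the fewest. Per 10000 peaks of the library, they came to 19.4 ± 3.10 in EpH4 and 17.8 ± 2.46 in EpRas (SD, n = 4 each), a log2 ratio of -0.12, whereas the raw numbers gave 0.36. By treatment the values were 19.3 ± 2.33 untreated and 17.9 ± 3.24 with TGF-β, a log2 ratio of -0.11 against 0.31 for raw numbers. The sign of either ratio thus depended on the scaling, and the groups overlapped in all of these. On the scaled measure, receptors stood at 6.37 ± 0.994 in EpH4 and 6.42 ± 1.07 in EpRas, and ligands at 13.0 ± 2.52 and 11.4 ± 1.95.

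No member locus separated the cell lines by its number of peaks. Of the 24 loci with a peak, 0 had line values that did not overlap, by the exact permutation test 0 reached an unadjusted p under 0.05 (two-sided, 70 assignments), and among all 15756 loci with a peak 4.82% separated, 4.27% with more peaks in EpRas and 0.552% with fewer. The smallest p that 4 libraries against 4 allow is 0.0286, and no locus in the genome passed after Benjamini-Hochberg adjustment (smallest adjusted p 0.593). The difference EpRas minus EpH4 was above 0 at 17 of the 24 members and below 0 at 4 (70.8% above, against 65.9% of all loci). Its median was 0.25 peaks, as over all loci. By role it was above 0 at 9 of 15 ligands and 8 of 9 receptors.

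*Wnt5b*, a ligand of the β-catenin-independent branch (chr6:119432531-119544347), came nearest to separating the lines. Its locus held 0, 1, 2 and 0 peaks in the EpH4 libraries (untreated 1 and 2, then TGF-β-treated 1 and 2, an order kept below) and 4, 2, 5 and 3 in the EpRas libraries. The lowest EpRas value equaled the highest EpH4 value, with a mean difference of 2.75 peaks (exact permutation p = 0.0571, adjusted p = 0.785 over all loci). Many of these peaks lay nearer the start of *Adipor2* or *Fbxl14* than that of *Wnt5b*. Without flanks the mean difference was 1.75 peaks, and the lines overlapped (exact permutation p = 0.0857). Per 10000 peaks of the library the lines no longer overlapped at *Wnt5b*, with 0 to 1.12 in EpH4 and 1.45 to 2.32 in EpRas. On that scale 1 member was higher in EpRas (3.93% of all loci) and 1 lower (5.50%), so the excess of EpRas calls among all loci turned with the scaling.

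The member that was lower on that scale was *Wnt7b*, the ligand with the most peaks. It had 5, 6, 8 and 4 peaks in EpH4 and 3, 2, 7 and 4 in EpRas libraries. Those beyond the 3′ end of *Wnt7b* lay nearest the start of *7530416G11Rik*. As raw numbers the lines overlapped (difference -1.75, exact permutation p = 0.314). Per 10000 peaks they did not, with 3.70 to 4.58 in EpH4 and 1.45 to 2.56 in EpRas.

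*Wnt7a*, its close paralog, leaned the same way. It had 4, 4, 3 and 2 peaks in EpH4 and 3, 0, 2 and 1 in EpRas libraries, groups that overlapped (difference -1.75, exact permutation p = 0.143). *Wnt7a* and *Wnt5b* lie on chromosome 6, which held 6.43 ± 0.273% of EpH4 peaks and 4.26 ± 0.198% of EpRas peaks (SD, n = 4 each). *Wnt7b* lies on chromosome 15, with 5.48 ± 0.307% and 6.33 ± 0.428%. The part of these chromosome shares in the values of the loci was not tested, and scaled to the peaks of the chromosome the same 2 members, *Wnt5b* and *Wnt7b*, had lines that did not overlap.

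Among the other ligands, *Wnt10b*, which marks the early mammary bud, had 0, 1, 1 and 0 peaks in EpH4 and 4, 1, 3 and 1 in EpRas libraries. *Wnt9a* had 1, 2, 6 and 1 against 3, 3, 4 and 0. *Wnt3a*, a canonical ligand next to *Wnt9a*, had 0, 2, 3 and 1 against 2, 3, 4 and 1. All of these groups overlapped. Every region in the *Wnt10b* locus lay nearest the start of *Arf3* or *Wnt1*, and not that of *Wnt10b*. At *Wnt3a*, the region called in the most libraries, 7, was at the *Arf1* promoter, 62.4 kb from the *Wnt3a* start. At *Wnt9a*, a region called in 7 libraries lay nearest the start of *Prss38*. *Wnt10a* had 3, 1, 1 and 1 against 1, 1, 2 and 1, and *Wnt11*, a ligand of convergent extension movements, 2, 1, 2 and 1 against 0, 2, 2 and 1. *Wnt6* had 1 peak in every library but the first TGF-β-treated EpRas library, where it had 2, and the receptor *Fzd2* showed the same numbers.

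Peaks were found in EpRas lists alone at 4 members, *Wnt1*, *Wnt2*, *Wnt2b* and *Fzd5*, and in EpH4 lists alone at 0 members. Among all loci with a peak, 14.8% were of the EpRas kind and 3.92% of the EpH4 kind, so that 4 of 24 is close to the background. *Wnt1* had 1, 1, 2 and 0 peaks in EpRas libraries, *Wnt2* 1, 0, 1 and 1, and *Fzd5* 1, 0, 2 and 1. With lists cut to the same number of peaks, the best-scored 10821, these 4 members were again found in EpRas lists alone, now with *Wnt8b* and *Fzd6*, and *Fzd1* and *Lrp6* in EpH4 lists alone, against 11.4% and 10.3% of loci. The loci of *Wnt1* and *Wnt10b* overlap, and 1 region, upstream of *Wnt1*, was counted in both.

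TGF-β separated none of the member loci over both lines. Of 24 loci, 0 had treatment values that did not overlap (0.438% of all loci), and 0 reached an unadjusted p under 0.05 in the exact permutation test. Per 10000 peaks, 0 members were higher with TGF-β (0.704% of all loci) and 2 were lower (1.44%), *Lrp5* and *Wnt4*. *Lrp5* had 2.20 to 2.79 peaks per 10000 with TGF-β and 2.90 to 4.58 without, and *Wnt4*, which acts in ductal side branching, had 0 to 0.558 and 0.581 to 0.802. *Wnt4* had a single peak in 6 libraries and none in replicate 2 of either TGF-β-treated group, so its scaled values differed among those 6 by list length alone.

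Within EpRas cells, the 2 libraries with TGF-β both had more peaks than the 2 without at 3 members, *Wnt2b*, *Wnt7b* and *Fzd8* (12.0% of all loci), and both had fewer at 0 members (1.27%). *Wnt2b* had 0 and 0 peaks without and 2 and 1 with TGF-β, *Wnt7b* 3 and 2, then 7 and 4, and *Fzd8* 0 and 0, then 1 and 1. With 2 libraries against 2 the smallest possible p is 0.333, so these are descriptions. Per 10000 peaks, 5 members were higher (12.0%) and 4 lower (12.9%), and *Wnt2b*, *Wnt7b* and *Fzd8* were among the higher ones. At equal list length 2 were higher, *Wnt2b* and *Wnt7b*, and 4 lower, and the call of *Fzd8* was lost. With flanks of 50 kb that of *Wnt2b* was lost. The counts turned on single libraries, with 3 higher and 5 lower without replicate 1 of the TGF-β-treated group, which has the longest list, 15 higher and 0 lower without its replicate 2, 10 and 0 without replicate 1 of the untreated group, and 5 and 2 without its replicate 2. Shares over all loci were not computed at equal list length, with other flanks or with a library left out, so these member counts have no background.

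Within EpH4 cells, 2 members were higher with TGF-β, *Fzd1* and *Fzd4* (6.13% of all loci), and 1 was lower, *Wnt7a* (3.27%). Either receptor had 0 and 0 peaks without and 1 and 1 with TGF-β. *Fzd4* is also the receptor of Norrin, a ligand unrelated to the Wnt proteins. In EpRas cells *Fzd1* had 0 and 0 without and 3 and 0 with TGF-β, and *Fzd4* had 2 and 0, then 3 and 1. Per 10000 peaks, 2 members were higher (12.6%) and 5 lower (12.8%). At equal list length 0 were higher and 3 lower, *Fzd7*, *Wnt7a* and *Lrp6*. The calls of *Fzd1* and *Fzd4* were lost there, without flanks and at scores at or above the pooled median, and that of *Wnt7a* without flanks and at those scores. Without replicate 1 of the TGF-β-treated group there were 2 higher and 6 lower members, without its replicate 2 there were 7 and 1, and without replicate 2 of the untreated group 3 and 3. Here too, shares over all loci were not computed at equal list length or with a library left out. The effect of TGF-β was also compared between EpRas and EpH4 cells by permuting line labels within each treatment, and the smallest p among members was 0.333 (exact permutation, 36 assignments, smallest possible p 0.0556).

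The remaining 9 loci with a peak, *Wnt1*, *Wnt2*, *Wnt4*, *Wnt8a*, *Wnt8b*, *Fzd5*, *Fzd6*, *Fzd7* and *Lrp6*, had 3 to 7 peaks summed over the 8 libraries. *Fzd7*, a receptor noted in mammary stem cells, had 1 peak in 7 libraries and 0 in replicate 2 of TGF-β-treated EpH4 cells. *Lrp6*, a co-receptor, had 1, 1, 1 and 0 in EpH4 and 1, 0, 2 and 1 in EpRas libraries.

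At the level of single sites, the share that separated the lines or the treatments was small among members, as it was over the genome. The peaks of the 8 lists merged into 37230 regions, of which 75 touched a member locus, 50 at ligands and 25 at receptors. Of the 75, 26 were called in only 1 library (34.7%, against 31.6% of all regions) and 6 in all 8 (8.00%, against 11.4%). Promoters of members accounted for 14 regions, promoters of other genes for 7 and sequence outside promoters for 54. Where a nearest gene is given, here and above, only start sites of protein-coding genes were compared. For 19 regions the nearest such start site belonged to a gene that is no member, so that a peak in a locus is not thereby a peak of its gene. Some other regions lay at promoters of genes left out of this comparison.

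**Figure D3:**
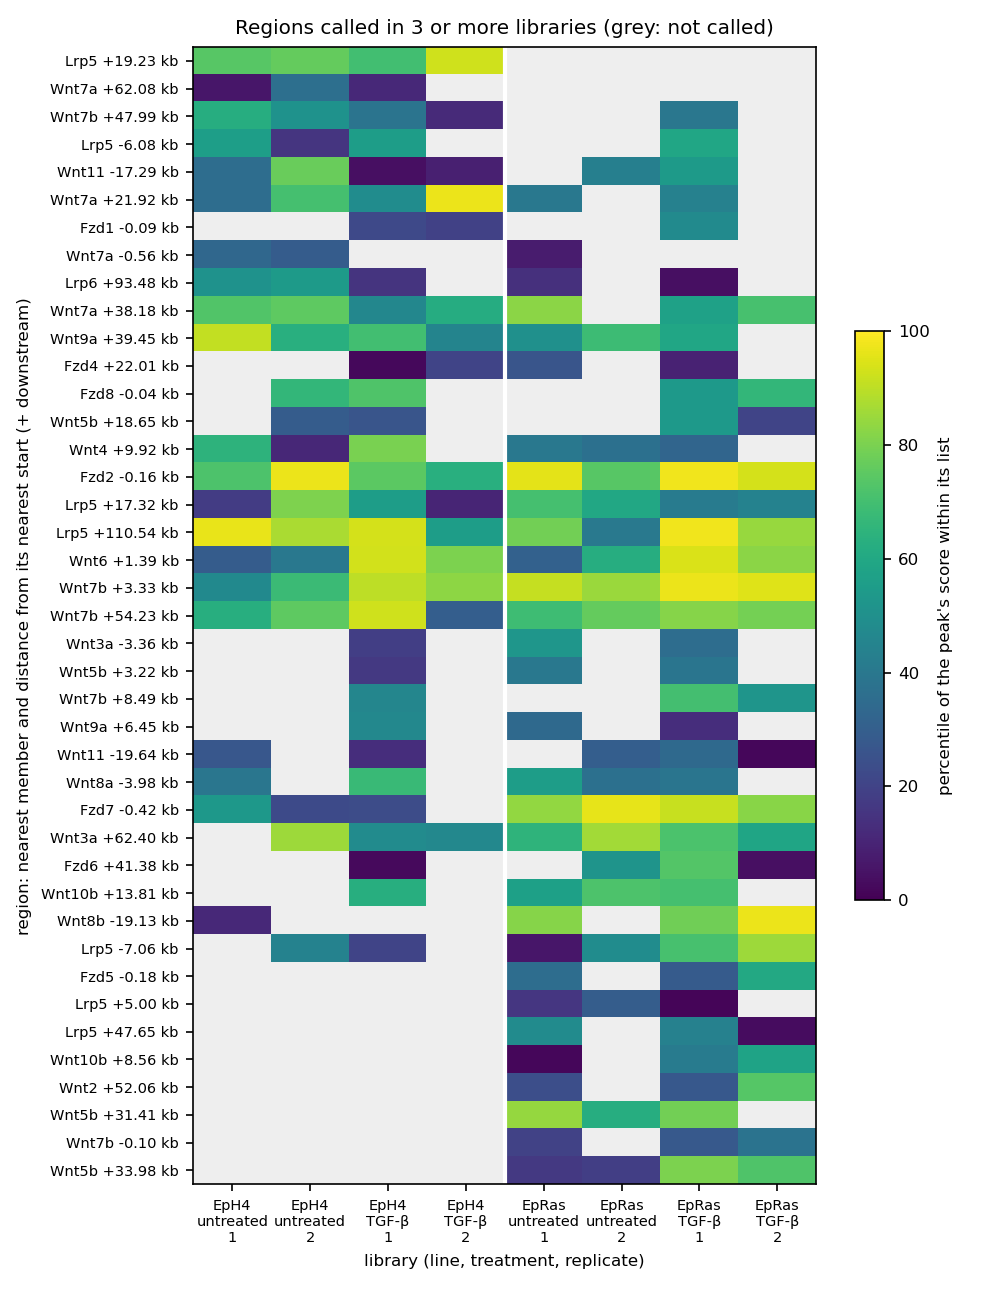
Score of each region called in 3 or more libraries, as a percentile of the scores in its own list (colors, 100 highest), by library (columns). Rows name the nearest member and the distance from its nearest start site, ordered from regions called mainly in EpH4 (top) to mainly in EpRas (bottom), and grey cells were not called. The top row is the *Lrp5* region found in every EpH4 list and in none from EpRas cells, and the bottom row the *Wnt5b* region with the reverse pattern.

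The co-receptor gene *Lrp5* (chr19:3584828-3686564) had as many peaks in one line as in the other, yet partly at different sites. Its locus held 4, 6, 5 and 3 peaks in EpH4 and 5, 4, 6 and 4 in EpRas libraries (difference 0.25, exact permutation p = 1). An intronic region 19.2 kb downstream of the start was present in each of the 4 EpH4 lists and absent from the EpRas lists. Its scores stood at percentiles 73.9, 76.2, 69.6 and 92.6 of the EpH4 lists. A neighboring region, 17.3 kb downstream of the start, was called in all 8 libraries, at percentiles 10.3 to 80.6 in EpH4 and 41.8 to 70.4 in EpRas. Introns 5.00 kb and 47.6 kb downstream of the start had a region called in 3 EpRas and no EpH4 libraries, at mean percentiles 15.5 and 31.9. The most strongly scored of the shared regions in the locus lay at the promoter of *Ppp6r3*, a neighboring phosphatase subunit gene.

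The *Lrp5* intron was the only member region with that pattern (1.33%, against 0.752% of all regions). The only one with the reverse pattern (1.33%, against 1.98% of all regions) lay in the *Wnt5b* locus but inside *Adipor2*, an adiponectin receptor gene. Its percentiles were 16.8 and 18.4 in untreated and 80.2 and 72.5 in TGF-β-treated EpRas lists. The *Wnt5b* gene itself held an intronic region called in 3 EpRas and no EpH4 libraries, with 1 AP-1 string and a mean percentile of 75.1. With lists cut to equal length, the *Lrp5* region still separated the lines, and the *Adipor2* region did not. Without replicate 2 of untreated EpRas cells, 6 regions would separate in the EpRas direction and 1 in the other, and without replicate 2 of TGF-β-treated EpRas cells 3 and 1.

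With a looser rule, 8 member regions were called in at least 3 EpRas and no EpH4 libraries (10.7%, against 5.83% of all regions) and 2 in at least 3 EpH4 and no EpRas libraries (2.67%, against 1.98%). The 8 were the promoters of *Fzd5* and *Wnt7b*, a site 8.56 kb downstream of the *Wnt10b* start, the 2 in *Lrp5* introns, the one downstream of *Wnt2* and those in *Wnt5b* and *Adipor2*. The site in the *Wnt10b* locus lay closer, at 5.25 kb, to the start of *Arf3*. The 2 were the *Lrp5* intron and a site beyond the 3′ end of *Wnt7a*. The EpRas lists held 13784 to 27337 peaks and the EpH4 lists 10821 to 17927, and the part of list length in these counts was not tested.

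**Figure D4:**
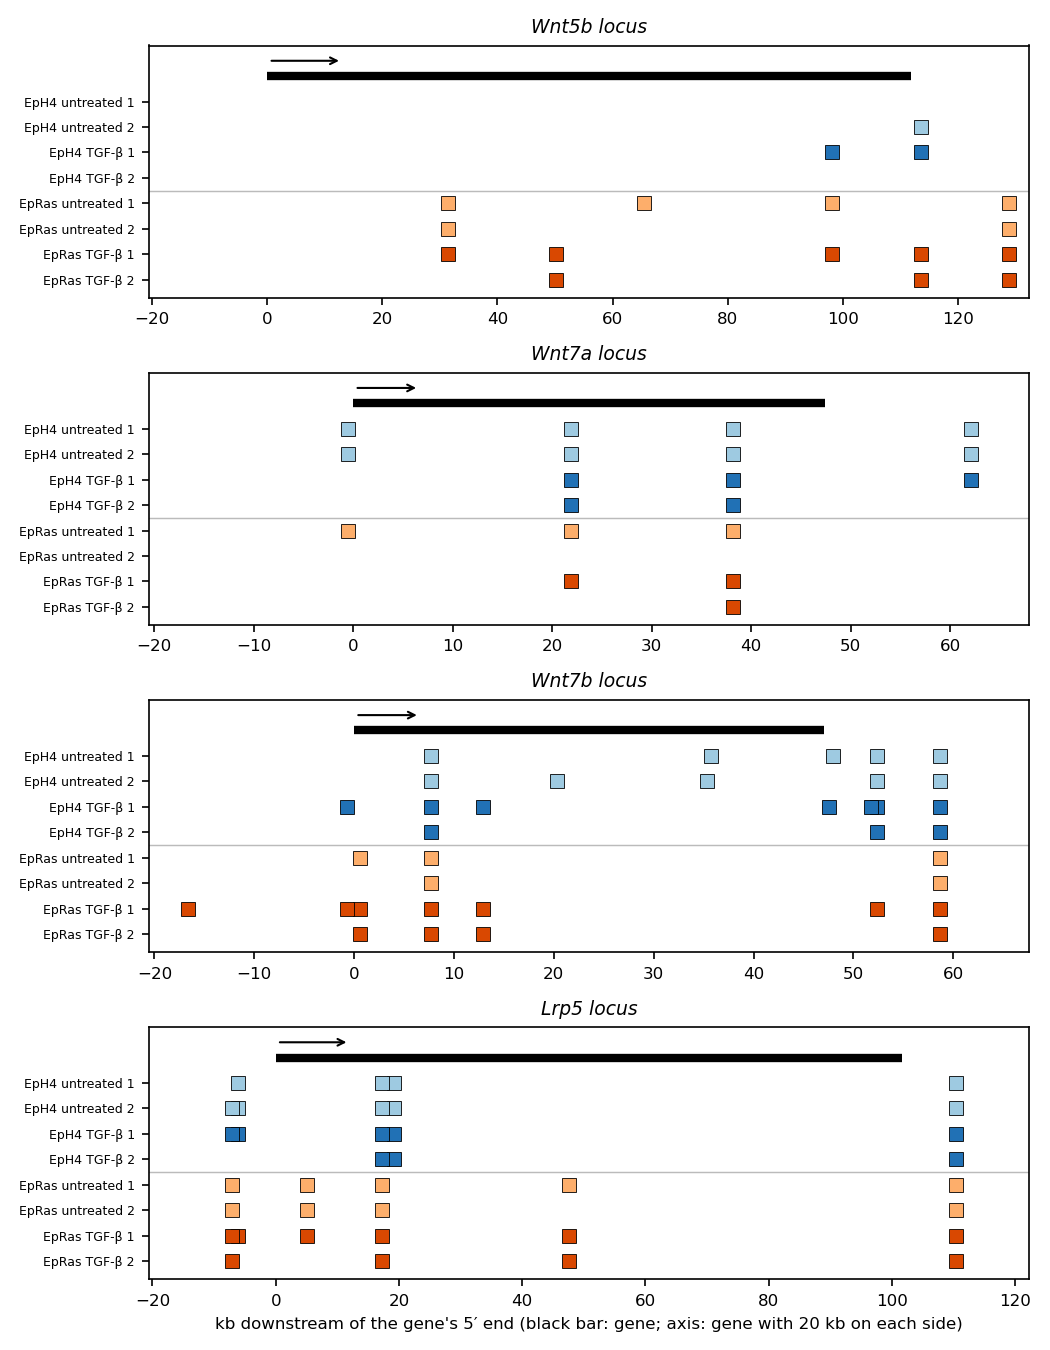
Positions of called regions in the loci of *Wnt5b*, *Wnt7a*, *Wnt7b* and *Lrp5*, 1 square per region and library (rows, EpH4 above the grey line and EpRas below), against the distance in kb from the 5′ end of the gene. The black bar is the gene, the arrow its direction, and each axis spans the gene with 20 kb on each side. In *Lrp5*, EpH4 libraries shared a region 19.2 kb downstream of the start that EpRas libraries lacked.

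TGF-β was accompanied by no region that separated all treated from all untreated libraries (0 of 75 either way, against 0.320% and 0.0188% of all regions). Found in each EpRas list with TGF-β and in no other list were 2 regions (4.21% of all regions), the sites printed for *Wnt2b* and *Wnt5b*, at percentiles 62.0 and 58.1 and 58.1 and 17.8 of the treated lists. Allowing EpH4 calls, 5 were called in both treated and no untreated EpRas libraries (6.67%, against 7.64%), and 0 in the reverse direction (0.927%). In EpH4 cells, 2 regions were called in both treated and no untreated libraries (3.27% of all regions) and 1 in the reverse direction (1.68%). The EpH4 gains were the *Fzd1* promoter and a site 22.0 kb downstream of the *Fzd4* start. In the treated EpH4 lists the former stood at percentiles 22.1 and 19.5 and the latter at 2.32 and 20.7. The site in the *Fzd4* locus lay in an exon and at the promoter of another gene, *AI314278*. The loss was at the *Wnt7a* promoter.

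The 6 regions called in every library lay at *Wnt6*, *Fzd2*, *Wnt7b* (2), *Lrp5* and the *Ppp6r3* promoter. The score percentile of 0 of them separated the lines (8.12% of the 4259 such regions). That of 1, the *Wnt6* intron 1.39 kb downstream of the start, separated the treatments (2.86%). It stood at 29.1, 39.9, 31.2 and 62.3 in the untreated lists and at 93.3, 80.1, 94.4 and 82.6 in the lists with TGF-β, means of 40.6 ± 15.2 and 87.6 ± 7.27 (SD, n = 4 each). Every treated value was above every untreated value, in both lines (exact permutation p = 0.0286, the smallest possible, adjusted p = 0.996 over all such regions). At equal list length the region was called in 7 libraries. The *Fzd2* promoter stood at percentiles 63.1 to 97.9, and the *Wnt7b* intron 3.33 kb downstream of a start ran from 47.3 to 89.9 in EpH4 and from 84.8 to 97.2 in EpRas lists, which overlapped (exact permutation p = 0.0571, adjusted p = 0.408).

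Over all member regions together, each of the 4 kinds of motif string had a smaller share than in regions at large. The member counts were small, with 18 windows for AP-1, 7 for TCF/LEF, 6 for RUNX and 2 for ETS. The AP-1 string occurred in 24.0% of the 75 windows and in 34.7% of all 37228 windows of 300 bases, the TCF/LEF strings in 9.33% and 18.8%, the RUNX string in 8.00% and 11.5%, and the ETS string in 2.67% and 6.59%. Regions at ligands held the AP-1 string in 28.0% and a TCF/LEF string in 4.00%. Those at receptors held them in 16.0% and 20.0%. The RUNX string was in 4.00% of ligand and 16.0% of receptor windows. The receptor windows numbered 25, of which 5 held a TCF/LEF string and 4 the RUNX string. Their TCF/LEF share was thus close to that of all windows, and their RUNX share rested on few windows. The AP-1 and ETS shares at receptors were lower than those of all windows. These differences were not tested. The windows at members had a median GC content of 53.7%, against 49.0% for all. The part of base composition in these shares was not tested.

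A list of 56 other genes of the pathway gave the setting. A peak was found at 43 of them (76.8%, against 71.8% of all protein-coding genes), and 19 had one in all 8 libraries (33.9%, against 29.3%). Of the 43, 0 separated the lines (4.82% of all loci) and 0 the treatments (0.438%) by the number of peaks. In the exact permutation test, 0 reached an unadjusted p under 0.05 for either. Per 10000 peaks 0 were higher in EpRas (3.93% of all loci) and 4 lower (5.50%), *Rnf43*, *Myc*, *Axin1* and *Tcf7l1*. The raw means in EpRas and EpH4 were 1.75 and 3.25 at *Rnf43*, 2.25 and 2.5 at *Axin1*, and 2.25 in either line at *Myc*. *Myc* was thus lower only after scaling to list length. *Tcf7l1*, a repressor among the TCF factors, had 4, 3, 5 and 5 peaks in EpH4 and 2, 0, 3 and 2 in EpRas libraries. *Axin2* and *Lef1*, commonly used readouts of β-catenin activity, had 0 peaks in all libraries, as did 11 others. Genes without a peak made up 23.2% of the list, against 28.2% of all protein-coding genes. Of the 8 genes listed as known targets, which include *Axin2* but not *Lef1*, 5 had a peak. *Myc* and *Cd44*, among these targets, had a peak in all 8 libraries.

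Within EpRas cells, 4 of the 43 pathway genes had more peaks in both TGF-β-treated libraries (12.0% of all loci), *Rspo2*, *Znrf3*, *Tcf7l2* and *Dkk4*, and 1 had fewer (1.27%), *Dvl1*. *Znrf3*, a ubiquitin ligase that removes Frizzled from the membrane, had 3 and 3 peaks without and 6 and 4 with TGF-β. *Dvl1*, the relay below Frizzled, had 5 and 5 peaks without and 4 and 2 with TGF-β in EpRas cells, and 1 and 1, then 3 and 2, in EpH4 cells. The difference of these effects was not resolved at *Dvl1* (exact permutation p = 0.278). In EpH4 cells 2 were higher (6.13% of all loci), *Dvl1* and *Tcf7l1*, and 3 lower (3.27%), *Apc*, *Pygo2* and *Notum*.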

How the data were processed

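FAIRE-seq libraries of EpH4 and EpRas cells, 2 replicates for each of the 4 groups, were represented by 1 list of peaks each. The authors aligned Ion Proton reads to the mm10 genome by Bowtie2, and MACS2 was their peak caller, as the methods of the study describe. The submitters' processing notes give MACS2 2.0.9, and no Bowtie2 version. The deposited score of a peak has no stated unit and was used only for ranking and filtering. Whether a control entered peak calling was not given in the sources used here. The lists held no read counts, so depth is unknown and a site missed in a short list was not distinguishable from a closed one. Replicates are those of the labels, and the study describes its FAIRE-seq replicates as biological.

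Genes were taken from GENCODE vM21 (basic set). Peaks touching a gene span plus 20 kb by at least 1 bp were counted for every protein-coding gene, and loci with a peak in any library were compared. Groups were said to separate when their values did not overlap, and differences of means were tested by exact two-sided permutation over all assignments with Benjamini-Hochberg adjustment over all loci. Totals were scaled to 10000 peaks of the library, with Wilson 95% intervals that cover counting error only. Overlapping peaks from any list were joined to regions, and windows of 300 bases were searched for fixed strings. Python 3.11.15, numpy 2.4.6, pandas 2.3.3 and pyfaidx 0.9.0.4 were used, and the counting and the test were tested on simulated data.

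The members, the pathway and marker lists and the tests were chosen with earlier results of these data known. Values per library are given for the loci with the most peaks and for those that separated groups, and the other members by range. Regions were named when they separated lines or treatments, were found in each EpRas list with TGF-β and nowhere else, or ranked highest among those called in all 8. Other regions and genes named were chosen after their values were seen. Alternatives were equal list lengths, a score minimum, other flanks and overlap rules, other scalings, the replicate block and leaving out each library. Not every region called in all 8 libraries has its sequence reported here.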

Additional observations from a re-analysis of the deposited data

Results flagged for a closer look

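Replicate 2 of the TGF-β-treated EpH4 group stood apart from the other EpH4 libraries in its peaks at ligand loci, with 9.24 per 10000 peaks of the library (Wilson 95% interval 5.02 to 17.0) against 13.8 to 14.5 in the other 3. The gap to its nearest neighbor exceeded Dixon's 95% critical value for 4 samples. It has the shortest list, 10821 peaks, and the part of list length was not tested. In all, 12 groups of 4 libraries were examined in this way and 1 was found, where chance alone gives about 1 in 20.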

How the results depend on the processing

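The lists carry no depth, so the calls below rest on small whole numbers, and most counts moved with the processing, with the cause not tested except where a setting uses fewer libraries or peaks. Shares of all loci or regions that separated were computed only under the main rules and, for loci, per 10000 peaks of the library. The other counts below thus cannot be set against the rate of such calls over the genome. By line, members that separated numbered 0, but 2 at scores at or above the pooled median, with flanks of 50 kb, per 10000 peaks of the library and per 1000 peaks of the chromosome, and other pathway genes 0, but 1 at equal list length and above the median score, 2 with flanks of 50 kb and 4 under either scaling. By treatment, members numbered 0, but 2 per 10000 peaks of the library and 1 per 1000 of the chromosome, and pathway genes 0, but 1 and 2. Within EpRas, the 3 members became 6 at equal list length (2 higher, 4 lower) and with flanks of 50 kb, 5 above the median score, 9 per 10000 and 8 per 1000 peaks. Within EpH4, the 3 (2 higher, 1 lower) became 0 without flanks, 5 with flanks of 50 kb (2 and 3), 7 per 10000 (2 and 5) and 6 per 1000 peaks (2 and 4). They stayed 3 at equal list length, but with 0 higher and 3 lower and with *Wnt7a* alone shared, and above the median score they were 2 others, *Wnt6* and *Wnt10a*, both higher. The 2 regions that separated the lines became 1 at equal list length and without flanks, and the 0 that separated the treatments became 1 with flanks of 50 kb. The log2 ratios of member peaks as deposited were 0.36 by line and 0.31 by treatment.

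When each library was left out in turn, members that separated ranged from 0 to 3 by line, 0 to 1 by treatment, 3 to 15 within EpRas and 3 to 8 within EpH4, pathway genes from 0 to 3 by line and 0 to 1 by treatment, and regions from 2 to 7 by line and 0 to 1 by treatment. Leaving 2 libraries against 1 within a line gives a value with no test. The 15 arose without replicate 2 of TGF-β-treated EpRas (all higher), 10 without replicate 1 of untreated EpRas (all higher), 8 without replicate 1 of TGF-β-treated EpRas and 7 without replicate 2 of untreated EpRas. Within EpH4 the count was 8 without either TGF-β-treated library and 6 without replicate 2 of the untreated group. The 3 members by line and the 7 regions by line arose without replicate 2 of untreated EpRas cells, and 4 regions without replicate 2 of TGF-β-treated EpRas cells. The log2 ratio of receptor over ligand density stayed below 0 in all of the alternatives run, at -0.46 to -0.35 when libraries were left out.

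The deviations of same-numbered libraries from their group means correlated at -0.0647 to 0.176 over loci in the 6 pairs of groups. Replicate 1 had the longer list in every group but untreated EpH4. Whether same-numbered libraries shared a batch was not tested. With a replicate block, 1 member, *Wnt5b*, and 1 pathway gene, *Tcf7l1*, separated the lines within each replicate number, and 0 of either the treatments. The share of all loci under this rule was not computed.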
